A study of Mus musculus with 6 samples.

Results

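Fatty acid oxidation was examined through 35 genes, chosen by name as parts of the carnitine shuttle, of mitochondrial and peroxisomal oxidation, and of the PPAR regulators that control them. All 35 were among the 53735 genes of the table, and 33 averaged 10 normalized counts or more and were tested, among 14298 genes in all. A normalized count is a read count divided by the size factor of its library. The libraries were made from mouse leukemia stem cells, the fraction of a leukemia able to regrow it, taken at day 13 after leukemia cells were transplanted. There were 3 libraries from liver and 3 from bone marrow, all from mice labelled C57, male and given no treatment. The labels do not name the leukemia model, its driver genes, the sorting gate or the age of the mice, and they describe the replicates as technical. The labels tie no library to an animal, so every p-value here speaks to variation among these 6 libraries.

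Fatty acids enter mitochondria as carnitine esters, and each turn of beta-oxidation there runs through dehydrogenation by FAD, hydration, dehydrogenation by NAD and thiolysis, releasing acetyl-CoA. Peroxisomes shorten very long and branched chains with a separate set of enzymes, whose first step passes electrons to oxygen, and hand the products back to mitochondria. PPAR nuclear receptors, bound as dimers with RXR to repeated half-sites on DNA, and the PGC-1 coactivators raise many of these genes in liver, muscle and brown fat. Both the hepatic parenchyma and the marrow hold much lipid.

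None of the 33 tested members differed between liver and bone marrow at a limma adjusted p under 0.05, against 1.01% of all genes tested (0.42% higher and 0.594% lower in liver). The lowest adjusted p among them was 0.30, for Ech1, and 2 members, Ech1 and Pex5, had an unadjusted p under 0.05, against 15.7% of all genes tested. The log2 differences were small: 30 of the 33 were under 0.25 in size, or 90.9%, against 67.2% of all genes tested. Their median was -0.01, and that of all genes tested was also -0.01. Most members are well expressed, and 26 had a mean of at least 500 normalized counts. Among all genes at that level, a limit chosen after values were seen, the median size of the log2 difference was 0.11, against 0.10 for these 26 members and 0.16 for all genes tested.

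Each library rests on the reads recovered from its values, 9.73 to 13.8 M in liver and 15.4 to 18.5 M in bone marrow (M, 1e6 reads). Replicates 1 and 2 of each tissue differed in sex-linked transcripts although every label says male and calls the replicates technical, so the libraries go against both labels. Xist, which silences an X chromosome in female cells, had 6229, 1.42 and 2425 normalized counts in liver replicates 1, 2 and 3, against 4860, 4.28 and 2486 in bone marrow replicates 1, 2 and 3. Replicate 3 lay between replicates 1 and 2 in both tissues. The same held for the Y-linked Ddx3y, with 0, 939.5 and 597 in liver and 43.1, 994 and 545 in bone marrow. Whether replicate 3 shares material with replicates 1 and 2 was not tested. Every SD, SE, interval and p-value here counts the 3 libraries of a tissue as separate, and shared material would make these spreads too small. Of 15 hepatocyte markers, 8 were at 0 in every library, among them Alb, Ttr and Cps1. The summed hepatocyte markers ran from 2918 to 4602 in liver and from 3121 to 6688 in bone marrow, most of it Apoa1, Hnf4a and Ass1. The 9 stem and progenitor markers, among them Kit, Cd34, Hoxa9 and Meis1, were detected in every library and summed to between 14015 and 14521 in liver and between 14966 and 16198 in bone marrow. Some markers of other myeloid cells moved with tissue, but most were not called. Of 9 Kupffer cell and macrophage markers, 1 was tested and 0 were called. The 8 basophil and mast cell markers summed to 18366 to 28176 in liver and 26818 to 31493 in bone marrow, with 1 called higher and 1 called lower. Prss34, a basophil protease, had 1243, 3701 and 2694 in liver libraries and 193, 235 and 192 in bone marrow libraries (limma adjusted p = 0.016). Tpsb2, a mast cell tryptase, had at most 1 read in a liver library, against 61.1, 175 and 124 normalized counts in the bone marrow libraries (limma adjusted p = 0.0091). The 9 neutrophil markers summed to 175 to 880 in liver and 79.9 to 117 in bone marrow, and 1 of them, the chemokine receptor Cxcr2, was called higher in liver (limma adjusted p = 0.018). The part of these cells in the results on fatty acid oxidation was not tested. In bulk RNA, fewer cells of a type and less RNA per cell cannot be told apart.

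**Figure D1:**
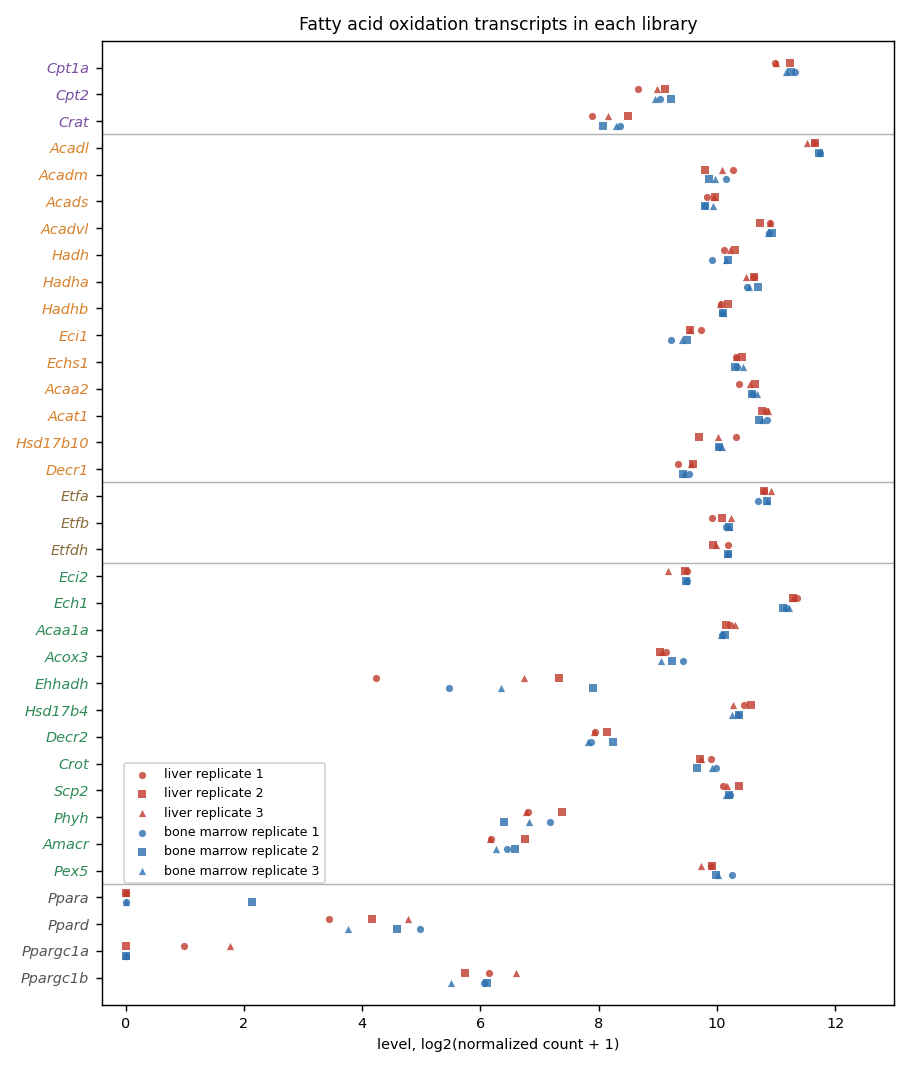
Level of each of the 35 members, as log2(normalized count + 1), in each of the 3 liver libraries (red) and 3 bone marrow libraries (blue), with marker shape giving the replicate number and lines separating, from the top, the carnitine shuttle, mitochondrial beta-oxidation, electron transfer, the peroxisomal genes and the PPAR regulators. Nearly all members lie close together in the 6 libraries, Ehhadh is spread from 17.8 to 238 normalized counts, and Ppara and Ppargc1a are at or near 0.

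Promoter letters were read for the 28 members that matched a RefSeq entry of GRCm38.p6, in the 250 bases before the start of transcription. Acaa2, Acat1, Amacr, Crat, Decr1, Hsd17b4 and Ppargc1b were not analysed here. The promoters of 3 members are shown because they carry the contrasts that follow: Ehhadh is the member whose level differed most between libraries of the same tissue, Cpt1a is the entry step of the mitochondrial branch, and Acadm and Cpt1a each hold 1 copy of the half-site that PPAR dimers read. Capitals mark AGGTCA or its reverse complement TGACCT, and the GC box GGGCGG or its reverse complement CCGCCC. The Ehhadh window is chr16:21787835-21788084 on the minus strand, the Cpt1a window chr19:3323051-3323300 on the plus strand, and the Acadm window chr3:153944644-153944893 on the minus strand.
Ehhadh: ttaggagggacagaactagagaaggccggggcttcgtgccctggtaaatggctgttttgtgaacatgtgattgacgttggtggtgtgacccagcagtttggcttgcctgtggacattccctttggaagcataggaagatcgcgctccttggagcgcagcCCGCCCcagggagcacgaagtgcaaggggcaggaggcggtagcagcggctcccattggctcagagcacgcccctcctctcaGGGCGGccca
Cpt1a: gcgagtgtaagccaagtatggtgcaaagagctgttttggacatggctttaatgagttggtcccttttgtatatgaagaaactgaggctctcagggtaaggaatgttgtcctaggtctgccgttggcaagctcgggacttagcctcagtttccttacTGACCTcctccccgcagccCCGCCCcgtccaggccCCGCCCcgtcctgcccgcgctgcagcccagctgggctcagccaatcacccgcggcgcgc
Acadm: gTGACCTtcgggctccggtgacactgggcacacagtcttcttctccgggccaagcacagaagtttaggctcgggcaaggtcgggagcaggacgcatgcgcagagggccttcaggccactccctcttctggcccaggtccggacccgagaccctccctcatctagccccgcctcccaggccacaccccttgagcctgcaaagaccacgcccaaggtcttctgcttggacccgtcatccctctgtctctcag

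The 3 windows differ in these letters. Ehhadh holds 2 GC boxes and no half-site, Cpt1a 2 GC boxes and 1 half-site beginning 94 bases before the start, and Acadm no GC box and 1 half-site at the far end, 249 bases before the start. Over the 28 members, searched on both strands, the half-site was found in 5 (Acadm, Acadvl, Cpt1a, Echs1 and Scp2), or 17.9%, against 15.8% of 27025 genes. The same half-site repeated directly with 1 base of any kind between the copies was found in 0 of 28 and in 0.0407% of all genes, and the longer TCAAGGTCA, read by estrogen-related receptors, in 0 of 28 and 0.422%; both contain the half-site. The letters GGGCGG were found in 21 of 28, or 75.0%, against 35.4% of all genes, while TATAAA was found in 0 of 28, against 14.3% of all genes. The GC box stood in 10 mitochondrial and 9 peroxisomal members, from branches of 19 and 12 genes of which not all had a promoter read. The 27025 genes were not chosen by expression, whereas most members are well expressed, so the 2 sets are unlike. These counts describe the letters of the window, and sites farther from the start were not searched.

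The carnitine shuttle carries long chains across the mitochondrial membranes. Cpt1a, which makes the acylcarnitine at the outer membrane and is the step that malonyl-CoA inhibits, had 2015, 2402 and 2043 normalized counts in liver replicates 1, 2 and 3, against 2553, 2445 and 2303 in bone marrow. Each liver library was below the bone marrow library of the same number, but the tissues overlapped, because liver replicate 2 lay above bone marrow replicate 3. The liver mean was 2154 ± 216 and the bone marrow mean 2433 ± 125 (SD, n = 3 each). On the log2 scale liver differed by -0.18 ± 0.08 (SE, limma adjusted p = 0.36). The 95% interval ran from -0.37 to 0.02. Per kilobase of transcript it was the highest of the 3 shuttle genes, at 499 in liver and 564 in bone marrow. Cpt2, which regenerates acyl-CoA in the matrix, had 490 ± 78.8 normalized counts in liver libraries and 538 ± 51.9 in bone marrow libraries. Crat, which handles acetyl groups in mitochondria and peroxisomes, had 293 ± 61.5 and 304 ± 31.9. The log2 differences of all 3 were negative, and the intervals of Cpt2 and Crat reached from -0.47 to 0.19 and from -0.47 to 0.34.

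Acyl-CoA dehydrogenases open the mitochondrial spiral, each for its own chain lengths. Acadl, the long-chain enzyme, had the highest level per kilobase among the mitochondrial beta-oxidation genes, at 1632 in liver and 1774 in bone marrow. Its normalized counts were 3188, 3236 and 2957 in liver and 3419, 3369 and 3412 in bone marrow. All 3 liver libraries lay below all 3 bone marrow libraries, with a log2 difference of -0.12 ± 0.05 (SE, limma adjusted p = 0.34). The gap is small beside the levels, and the bone marrow libraries differed by an SD of 27.3 where the liver libraries differed by 149. Acadvl, for very long chains, had 1841 ± 121 in liver and 1896 ± 42.8 in bone marrow. Acadm, for medium chains, had 1072 ± 174 and 1025 ± 107, and Acads, for short chains, 967 ± 46.0 and 914 ± 49.8. The intervals of Acadvl, Acadm and Acads all included 0 and lay between -0.25 and 0.37.

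The later steps of the spiral were as even. Hadha and Hadhb encode the subunits of the trifunctional protein, which performs hydration, the second dehydrogenation and thiolysis on long chains, and their genes lie head to head on chromosome 5 with 86 bases between their annotated starts. Hadha had 1589, 1576 and 1437 normalized counts in liver, against 1459, 1649 and 1495 in bone marrow. Hadhb had 1073, 1163 and 1057 in liver and 1089, 1097 and 1100 in bone marrow. The ratio of Hadha to Hadhb was 1.40 ± 0.07 in liver and 1.40 ± 0.09 in bone marrow (SD, n = 3 each). The interval of the log2 difference was -0.18 to 0.18 for Hadha and -0.16 to 0.16 for Hadhb.

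Eci1, an isomerase that moves the double bond of unsaturated chains into place, had the largest log2 difference of the mitochondrial branch. It had 846, 745 and 745 normalized counts in liver, against 599, 717 and 676 in bone marrow. Every liver library was above every bone marrow library. The log2 difference was 0.23 ± 0.10 (SE) with a limma adjusted p of 0.32, and the 95% interval included 0 and reached 0.46. Decr1, the reductase that also serves unsaturated chains, had 725 ± 68.2 in liver and 706 ± 27.6 in bone marrow.

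The remaining matrix enzymes overlapped between the tissues. Echs1, the short-chain hydratase, had 1309 ± 61.6 normalized counts in liver libraries and 1317 ± 62.3 in bone marrow libraries, and its highest library was 1.09 times its lowest. Hadh, the hydroxyacyl-CoA dehydrogenase for shorter chains, had 1186 ± 81.7 in liver and 1087 ± 108 in bone marrow. The thiolase Acaa2 had 1479 ± 136 and 1572 ± 61.1, and Acat1, the thiolase of acetoacetyl-CoA, 1802 ± 61.0 and 1756 ± 85.6. Hsd17b10, an X-linked dehydrogenase that also takes part in isoleucine breakdown and mitochondrial tRNA processing, had 1286, 827 and 1034 in liver and 1050, 1043 and 1089 in bone marrow. Its spread in liver exceeded that in bone marrow. Liver replicate 1, the highest, is the library with the most Xist, and liver replicate 2, the lowest, has almost none, whereas the bone marrow libraries with the same Xist split differ little, and the part of sex in this spread was not tested.

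Electrons from the acyl-CoA dehydrogenases pass through the flavoprotein made of the Etfa and Etfb products to the membrane enzyme encoded by Etfdh, and so to ubiquinone. Of the 3, Etfa had the highest level per kilobase in liver, at 1316, against 1279 in bone marrow, while Etfb had 1213 in liver and 1304 in bone marrow. The Etfa counts were 1777, 1784 and 1936 in liver and 1653, 1844 and 1846 in bone marrow, and the tissues overlapped. Etfdh had the largest difference of the 3, with 1163, 982 and 1013 in liver and 1164, 1169 and 1151 in bone marrow. Liver replicate 1 stood among the bone marrow libraries and the other two below them, giving a log2 difference of -0.15 ± 0.08 (SE, limma adjusted p = 0.45).

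**Figure D2:**
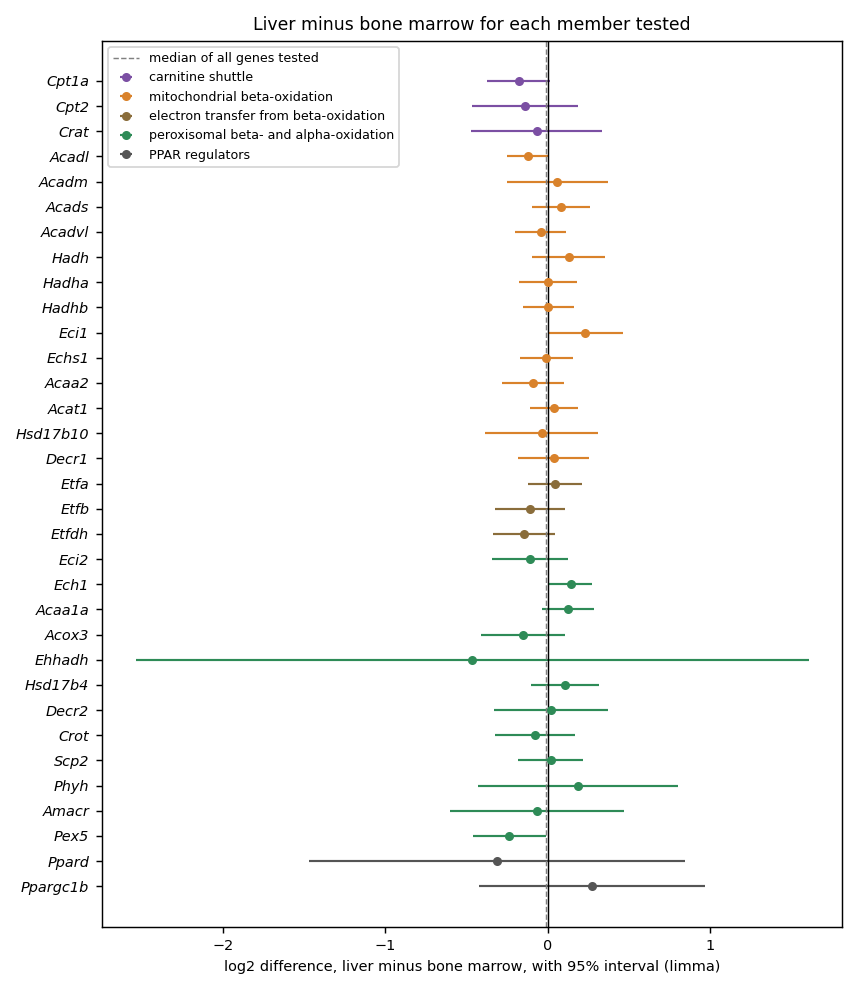
Log2 difference, liver minus bone marrow, with its 95% interval from limma for each of the 33 members tested, coloured by role, with the median of all genes tested as a dashed line. All 19 mitochondrial intervals lie between -0.47 and 0.46, while that of Ehhadh runs from -2.54 to 1.61.

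Counted over its 19 genes, all of which passed the filter, the mitochondrial branch had 9 positive and 10 negative log2 differences with a median of -0.01. Tissues did not overlap in 2 genes, Acadl below and Eci1 above, or 10.5%. This share was 22.3% of all genes tested and 29.0% of genes with a mean of at least 500. All 19 intervals lay inside ±0.5 on the log2 scale, against 46.8% of all genes tested and 82.6% of genes with a mean of at least 500. The mean of log2(normalized count + 1) over the branch was 10.15, 10.19 and 10.18 in liver replicates 1, 2 and 3 and 10.18, 10.19 and 10.20 in bone marrow.

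The summed counts of the branch separated the tissues by a small amount. They were 24785, 25059 and 24779 normalized counts in liver, against 25256, 25475 and 25491 in bone marrow, so the liver mean was 97.9% of the bone marrow mean. Acadl and Cpt1a, picked after their values were seen, carried this gap: without them the sums of the other 17 genes were 19581, 19420 and 19778 in liver and 19285, 19662 and 19776 in bone marrow, and the tissues overlapped. A sum over chosen members is given as a description with no test.

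Peroxisomal oxidation starts with acyl-CoA oxidases. Acox3, which takes branched chains, had 560, 522 and 539 normalized counts in liver, against 683, 600 and 529 in bone marrow. The multifunctional enzymes come next. Hsd17b4, the D-bifunctional protein that acts on branched and very long chains, had 1388 ± 147 in liver and 1284 ± 52.3 in bone marrow. Acaa1a, a peroxisomal thiolase, had 1187, 1136 and 1258 in liver and 1083, 1127 and 1072 in bone marrow. All liver libraries of Acaa1a lay above all bone marrow libraries, by a log2 difference of 0.12 ± 0.07 (SE, limma adjusted p = 0.45). Acaa1a shares exon bases with Myd88 on the other strand, and reads of the 2 cannot be told apart in libraries that do not mark strand.

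Ech1, a dienoyl-CoA isomerase found in peroxisomes and mitochondria, had the highest level per kilobase of the peroxisomal list, at 1999 in liver and 1815 in bone marrow. It had 2618, 2487 and 2494 normalized counts in liver, against 2300, 2209 and 2388 in bone marrow. The tissues did not overlap, with liver higher by 0.14 ± 0.06 (SE) on the log2 scale, a 95% interval of 0.01 to 0.27 and a limma adjusted p of 0.30. Eci2, the related isomerase, had 667 ± 77.4 in liver and 717 ± 6.29 in bone marrow, and Decr2, the peroxisomal dienoyl-CoA reductase, 255 ± 21.6 and 253 ± 41.3.

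Pex5, the receptor that brings proteins with the C-terminal targeting signal into the peroxisome, had 952, 961 and 849 normalized counts in liver, against 1217, 1013 and 1031 in bone marrow. Every liver library was below every bone marrow library. The log2 difference was -0.24 ± 0.10 (SE, 95% interval -0.46 to -0.01), and the limma adjusted p was 0.30. Crot, which exports shortened chains as carnitine esters, had 880 ± 65.5 in liver and 932 ± 105 in bone marrow. Scp2, whose longer product is a thiolase for branched chains, had 1186 ± 119 and 1169 ± 32.2.

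Phyh and Amacr had low levels. Phyh, which starts alpha-oxidation of phytanic acid, had 111, 165 and 108 normalized counts in liver, against 145, 83.1 and 112 in bone marrow. Replicate 2 was the highest library in liver and the lowest in bone marrow. Amacr, which converts the stereoisomers of branched acyl-CoA, had 82.9 ± 20.5 in liver and 85.7 ± 9.61 in bone marrow. The intervals were -0.43 to 0.80 for Phyh and -0.60 to 0.47 for Amacr.

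Ehhadh, the L-bifunctional enzyme of peroxisomes and a classical PPAR alpha target in rodent liver, stood apart from every other member by its spread within a tissue. Its normalized counts were 17.8, 161 and 106 in liver replicates 1, 2 and 3, and 43.1, 238 and 80.3 in bone marrow replicates 1, 2 and 3. Replicate 1 was the lowest and replicate 2 the highest in both tissues, and the highest library was 13.4 times the lowest, against at most 1.99 times for any other peroxisomal member and 1.55 times for any mitochondrial one. Replicate 2 exceeded replicate 1 by 3.11 on the log2 scale in liver and by 2.44 in bone marrow. In all, 219 reads of Ehhadh were counted in liver, against 434 for bone marrow.

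The comparison of tissues for Ehhadh had a wide interval. The log2 difference was -0.47 ± 0.89 (SE, 95% interval -2.54 to 1.61, limma adjusted p = 0.85). Without liver replicate 1 it was 0.47 and without bone marrow replicate 2 it was 0.20, so its direction rested on single libraries. Ehhadh was the 1 member of 33 that differed between replicates 1 and 2 by at least 1 on the log2 scale in the same direction in both tissues, or 3.03%, against 3.92% of all genes tested. Of the 561 genes that did, 426 were higher in replicate 2. A few other transcripts outside the members are given beside it, chosen after their values were seen. Hnf4a, a liver-enriched nuclear receptor, had 238, 1141 and 812 in liver and 236, 702 and 419 in bone marrow. Rxra, the partner of PPARs, had 15.8, 89.5 and 74.7 in liver and 32.3, 96.8 and 58.7 in bone marrow. Within each tissue both followed the same order of libraries as Ehhadh. So did the Y-linked transcript Ddx3y, with 0, 939.5 and 597 in liver and 43.1, 994 and 545 in bone marrow. The part of any of these in the Ehhadh levels was not tested.

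**Figure D3:**
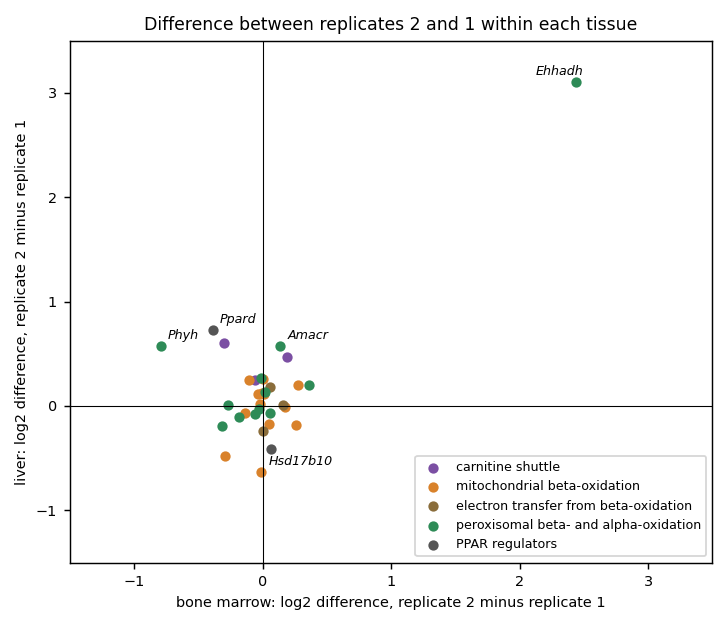
Difference between replicates 2 and 1, as a log2 difference of normalized counts, in bone marrow (x axis) and in liver (y axis) for the 33 members tested, coloured by role. Ehhadh lies at 2.44 and 3.11, away from the other members, of which none reaches 1 in either tissue.

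Over its 12 genes, all of which passed the filter, the peroxisomal list had 6 positive and 6 negative log2 differences with a median of -0.02. Tissues did not overlap in 3 genes, Ech1 and Acaa1a above and Pex5 below, against 22.3% of all genes tested. Intervals lay inside ±0.5 for 9 of the 12, the others being Ehhadh, Phyh and Amacr. Neither branch had a common direction, and the widest intervals of the peroxisomal list belonged to its 3 lowest genes. Crat, Ech1, Eci2 and Amacr were also treated as genes of both organelles. The mean log2 difference of the mitochondrial branch was -0.017 with all genes and -0.015 over the 18 left without them. That of the peroxisomal list was -0.043 and, over the 9 left, -0.053.

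**Figure D4:**
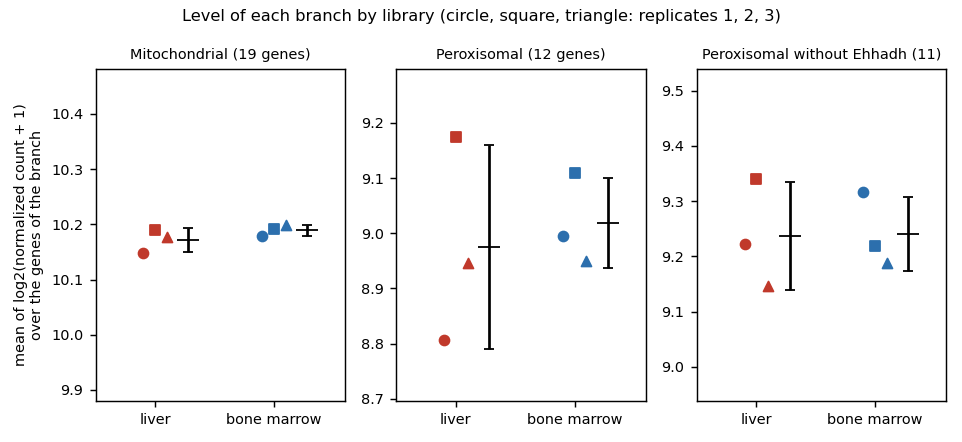
Mean of log2(normalized count + 1) over the genes of the mitochondrial branch, the peroxisomal list, and the peroxisomal list without Ehhadh, for each liver (red) and bone marrow (blue) library, with the group mean and SD in black. Each panel spans the same height on the log2 scale, and the peroxisomal means range from 8.81 to 9.17 in liver where the mitochondrial means range from 10.15 to 10.19.

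The mean difference between the branches within a library, mitochondrial minus peroxisomal, was 1.34, 1.02 and 1.23 in liver and 1.18, 1.08 and 1.25 in bone marrow on the log2 scale. Without Ehhadh, an exclusion made after its values were seen, it was 0.94 ± 0.09 in liver and 0.95 ± 0.08 in bone marrow. The means of this balance differed between tissues by less than the spread between libraries of a tissue. Per kilobase of transcript, the median gene of the mitochondrial branch had 536 normalized counts in liver libraries and 564 in bone marrow libraries, and the median gene of the peroxisomal list 293 and 328. Across both tissues, levels per kilobase ran from 70.6 for Crat to 1703 for Acadl in the mitochondrial branch and from 32.7 for Amacr to 1907 for Ech1 in the peroxisomal list.

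The PPAR regulators were scarce. Ppara, the receptor that drives oxidation genes in liver, had 0 reads in each of the liver libraries, and 0, 4 and 0 reads in bone marrow. A count of 0 allows up to 3 reads, which are 2.96 to 4.26 normalized counts in a liver library. Ppargc1a, the coactivator induced by cold and fasting, had 1, 0 and 2 reads in liver and 0 in each bone marrow library. Neither passed the filter, and no fold change is given. Both tissues were at or near this limit.

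Ppard, the widely expressed receptor of the family, had 9.88, 17.1 and 26.5 normalized counts in liver, against 30.5, 23.1 and 12.6 in bone marrow. The tissues overlapped, with a log2 difference of -0.31 ± 0.50 (SE, limma adjusted p = 0.82). Ppargc1b, the second PGC-1 coactivator, had 70.1, 52.6 and 96.3 in liver and 65.5, 68.5 and 44.6 in bone marrow. Its tissues overlapped as well, with a log2 difference of 0.27 ± 0.30 (SE, limma adjusted p = 0.72). Per kilobase, Ppargc1b was the highest of the 4, at 21.9 in liver and 17.9 in bone marrow. Without liver replicate 1 the log2 difference of Ppard was 0.03, and without both replicate 3 libraries that of Ppargc1b was -0.14, so neither had a settled direction.

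Wider lists of the same pathways were counted too. Of 28 further genes of mitochondrial oxidation, acyl-CoA activation and ketone handling in the table, 24 were tested and 0 passed in either direction. Over all genes tested 1.01% passed. Of the 24, 5 had an unadjusted p under 0.05, against 15.7% of all genes tested. The 5 include Nudt7, which encodes a peroxisomal enzyme. Bdh1, an enzyme of ketone body metabolism, had 303, 291 and 320 normalized counts in liver, against 206, 257 and 217 in bone marrow. Acsl1, which activates long-chain fatty acids, had 656, 755 and 727 in liver and 540, 465 and 616 in bone marrow. All liver libraries lay above all bone marrow libraries for both genes, with log2 differences of 0.43 ± 0.13 and 0.41 ± 0.12 (SE, limma adjusted p = 0.17 and 0.18).

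Of 36 further peroxisomal genes, 29 were tested and 0 passed, with 1 at an unadjusted p under 0.05, against 15.7% of all genes tested. Pex11a, which takes part in peroxisome division and is induced by PPAR alpha, was not below that p and had 206, 105 and 178 normalized counts in liver, against 256, 202 and 236 in bone marrow, and the tissues overlapped at the value of liver replicate 1.

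Of 31 PPAR targets, partners and related regulators, 21 were tested and 0 passed. Of the 21, 2 had an unadjusted p under 0.05, against 15.7% of all genes tested. Angptl4, a secreted inhibitor of lipoprotein lipase and a PPAR target, had 224, 260 and 148 normalized counts in liver, against 137, 108 and 124 in bone marrow. All liver libraries were above all bone marrow libraries, by a log2 difference of 0.74 ± 0.23 (SE, limma adjusted p = 0.19). Ucp2, a mitochondrial carrier, had 14540, 15665 and 16024 in liver and 17031, 16323 and 16953 in bone marrow, with no overlap and a log2 difference of -0.12 ± 0.05 (SE, limma adjusted p = 0.30). Over the 3 wider lists 11 genes had 0 reads in every library, among them Fabp1, Cyp4a10, Cyp4a14 and Fgf21, which hepatocytes express under PPAR alpha, and the muscle isoform Cpt1b. The tissues did not overlap in 11 of the 74 wider genes tested, or 14.9%, against 22.3% of all genes tested.

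At 3 libraries a tissue, no member was called under any of the 16 alternative settings, and the lowest adjusted p among them was 0.14, for Etfdh without liver replicate 1. A p that misses the threshold does not show that levels were equal. The 95% intervals above give the differences these libraries allow if the 3 libraries of a tissue are separate. With shared material the intervals would be too narrow.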

How the data were processed

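RNA sequencing measured transcripts in 6 libraries, 3 from liver and 3 from bone marrow, grouped by the sample titles. Per the labels' protocols, low-input full-length cDNA was made and tagmented. Per the submitters' processing notes, STAR 2.6.0c, Trimmomatic 0.36 and bcl2fastq 2.19.0 were used, then R 3.4.1 with DESeq2 1.16.1. Which build, annotation and counter served is not given in the sources used here. Each gene's deposited signal is a read count that the authors divided by 1 DESeq2 size factor per library, per the name of the table. In each library 100% of values were whole multiples of the smallest value within 0.01, so reads could be recovered, 9.73 to 18.5 M (1e6 reads) per library. Within a tissue the chi-square per degree of freedom between libraries was 6.93 to 28.3, so the libraries differed. These values cannot show whether replicate 3 shares material with replicates 1 and 2. Each library was counted as a separate sample.

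Tissue was the single term of a limma model (version 3.58.1, R 4.3.3) on log2(normalized count + 1), with variance trended on level. Tests were two-sided and adjusted by Benjamini-Hochberg over the 14298 genes with a mean of at least 10. Differences are on this scale and understate changes of low genes. Calls are at an adjusted p under 0.05. The main script was tested on simulated data. The members and lists were chosen with earlier results of these data known. Values in every library are given for members that pass, whose tissues do not overlap, or that have the highest level per length or largest difference in their role group, for the 4 PPAR regulators, and for the 2 wider genes with the smallest p per list, of which 1 is not reported here; others are exceptions chosen after values were seen. Levels per kilobase use the GENCODE M21 transcript (GRCm38) with the longest coding sequence, matched by symbol for all 35. Of these, 10 share exon bases with another gene: Crat, Acadvl, Hadha, Echs1, Etfb, Etfdh, Eci2, Acaa1a, Acox3 and Crot. In all but Etfb, 9 members, the other gene or 1 of them lies on the other strand. The limit given for Acaa1a holds for the levels of all 9. Alternatives were TMM factors, other pseudocounts and filters, edgeR 4.0.16 and DESeq2 1.42.0 on recovered reads, a block for the replicate number, and leaving out libraries. Floors of 3 reads cover counting error only. Figures used matplotlib 3.10.9.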

Additional observations from a re-analysis of the deposited data

How the results depend on the processing

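No member and no gene of the wider lists was called under any alternative run, and fits leaving out 1 library gave medians of -0.03 to 0.00 for the mitochondrial branch and -0.06 to 0.06 for the peroxisomal list. Over all genes, 145 were called, 622 by DESeq2 and 135 by edgeR on the recovered reads, between 6 and 433 without 1 library, 2 without both replicate 3 libraries, and 16 with that omission and the replicate number as a block. With that block and all libraries 525 were called. The main fit did not pair libraries by number, and deviations from the tissue means cannot settle whether they pair. Same-numbered libraries deviated together for replicates 1 and 2 (correlation 0.44 and 0.40). Liver replicate 1 with bone marrow replicate 2 had -0.44, and liver replicate 2 with bone marrow replicate 1 had -0.38. The replicate 3 libraries had 0.06, and liver replicate 3 went best with bone marrow replicate 2 (0.15). Where replicate 3 lies between the others, as for Xist, it deviates little from the mean, so its correlation can be low even if libraries pair.

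Of 527 log2 differences of members under the alternatives, 39 had the other sign, in 16 members, none of them called. Hadha had -0.0011 with TMM factors and -0.0016 with edgeR. Without both replicate 3 libraries, with or without the block, Decr1 had -0.0088, Decr2 -0.022, Echs1 0.049 and Ppargc1b -0.14. Leaving out 1 library gave ranges of -0.052 to 0.18 for Acadm, -0.073 to 0.012 for Acadvl, -0.26 to 0.029 for Amacr, -0.22 to 0.076 for Crat, -0.010 to 0.12 for Decr1, -0.058 to 0.15 for Decr2, -0.048 to 0.029 for Echs1, -1.08 to 0.47 for Ehhadh, -0.011 to 0.069 for Etfa, -0.035 to 0.053 for Hadha, -0.040 to 0.028 for Hadhb, -0.20 to 0.12 for Hsd17b10, -0.016 to 0.38 for Phyh, -0.65 to 0.031 for Ppard and -0.062 to 0.074 for Scp2. The cause was not tested. Depth limits Ppara, Ppargc1a and Ppard most; Ppard had 44 reads in liver and 78 in bone marrow.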
